A study of Sus scrofa with 5 samples.

Results

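The epithelial miRNAs of the miR-200, miR-141, miR-203 and miR-205 group were examined across pig blastocysts (BLs), ES-like cells, embryoid bodies (PEBs) and fetal fibroblasts (PFFs). Members were found by name, as ssc-miR-200a, ssc-miR-200b, ssc-miR-200c, ssc-miR-141, ssc-miR-429, ssc-miR-203a, ssc-miR-203b or ssc-miR-205 with or without an arm ending. The table of reported miRNAs held 2 of these 8 names, ssc-miR-205 and ssc-miR-429, among 411 mature names in all, of which 327 had a read in at least 1 library. It held no row under the other 6 names, so their levels were not analysed here. Each of the members held had 1 precursor row and no arm ending, and both passed the filter on low counts used for the tests (more than 5 reads in at least 3 libraries).

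BL_1 and BL_2 were libraries of many day 7 blastocysts, with different numbers of embryos in the sample sheet of the study, made by parthenogenetic activation, in which an oocyte develops without sperm after an electric pulse and 6-dimethylaminopurine, and they were the only cell type with 2 libraries. The ES-like cells were an embryonic stem cell-like line derived from blastocysts and kept with stem cell factor, basic fibroblast growth factor and serum on feeders of mouse embryonic fibroblasts treated with mitomycin C. The PEBs were clumps of that line aggregated in hanging drops after both cytokines had been taken away, so they share their origin with the ES-like library. The PFFs were cultured in serum from fetuses about a month old, without head, limbs and viscera, and each of these 3 cell types had 1 library, so differences between them have no replicate check.

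Depth was lowest in BL_1, with 113743 reads of mature miRNAs, and rose through BL_2 (2782150), the ES-like library (6372500) and PEBs (15849954) to PFFs (27071931). The read summary of the study names the ES-like and PFF totals the other way round, while the column names of the deposited table match the sample titles and were followed here. Levels are given as reads per 1000000 mature miRNA reads (RPM), and where no read was found the level may still be up to that of 3 counts, 26.4 RPM in BL_1 and 0.111 RPM in PFFs. The study reports that miRNAs were a far smaller share of all small RNAs in the BLs than in the other libraries, and smallest in BL_1. RPM does not show this difference, so all ratios between libraries here hold among mature miRNA reads only. Intervals are 95% and cover counting error only, since reads of amplified libraries are not independent molecules. The labels were set against marker miRNAs. The summed level of 9 fibroblast and mesenchyme miRNAs was 236083 RPM in PFFs, 212560 RPM in PEBs and 84768 RPM in ES-like cells, against 466.0 RPM in BL_1 and 340.0 RPM in BL_2. Of these, ssc-miR-199a-3p and ssc-miR-199b-3p had nearly the same counts and may be the same reads, and counted once they leave sums of 183565 RPM in PFFs, 132139 RPM in PEBs, 58252 RPM in the ES-like library, 272.5 RPM in BL_1 and 218.2 RPM in BL_2. Of 6 early embryo and pluripotent cell names, the table held ssc-miR-371-5p, at 324635 RPM in BL_1 and 296148 RPM in BL_2, at 30.9 RPM in the ES-like library, 0.505 RPM in PEBs and 0.185 RPM in PFFs. The ES-like library thus held far less of the only embryo marker available than the BLs and more than PEBs and PFFs, beside much of the fibroblast markers. The part of the mouse feeder cells in its reads was not tested.

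Both members are known for keeping cells epithelial. The miR-200 family, to which miR-429 and miR-141 belong, is transcribed from a pair of clusters, and miR-429 shares its seed with miR-200b and miR-200c. The family and the unrelated miR-205 repress ZEB1 and ZEB2, transcription factors that shut down E-cadherin during the change from epithelium to mesenchyme, and miR-203 is best known from skin, where it limits p63. In the blastocyst, the outer layer, the trophectoderm, is an epithelium, whereas fibroblasts are mesenchymal cells. In the RefSeq annotation of pig assembly Sscrofa11.1, MIR205 overlaps the long non-coding gene LOC102159171 and lies between the protein-coding genes CAMK1G and PLXNA2. MIR429 overlaps no other gene there and lies between LOC110261078 and TTLL10. The deposited table gives no positions for reported miRNAs, and the authors' reads were aligned to Sscrofa10.2, so no coordinates are given for either.

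Both blastocyst libraries had far more ssc-miR-205 than any other library. The BL libraries had 540 and 16007 reads of it, the ES-like library 134, PEBs 1136 and PFFs 19. Its level was 4748 RPM in BL_1 (4356 to 5165) and 5753 RPM in BL_2 (5665 to 5843), a mean of 5251 ± 711 RPM (SD, n = 2). It stood at 71.7 RPM in PEBs (67.6 to 76.0), 21.03 RPM in ES-like cells (17.6 to 24.9) and 0.702 RPM in PFFs (0.422 to 1.1). The order of the levels in these libraries was therefore BLs, PEBs, ES-like cells and PFFs. The counting intervals of BL_1 and BL_2, of the same cell type, did not overlap, so such intervals understate the spread between libraries. By number of reads, miR-205 ranked 22 of 215 names with a read in BL_1 and 19 of 275 in BL_2, but 166 of 306 in PEBs, 208 of 309 in ES-like cells and 264 of 315 in PFFs. The blastocyst libraries had 0.475% and 0.575% of their mature reads on this miRNA.

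For ssc-miR-429 the order was different, with the highest levels in the ES-like and PEB libraries. No read of it was found in BL_1 and 65 reads in BL_2, while the ES-like library had 7638 reads, PEBs 11376 and PFFs 2. Its level was 1199 RPM in ES-like cells (1172 to 1226) and 718 RPM in PEBs (705 to 731), where it ranked 66 and 76 among the names with a read. BL_2 stood at 23.4 RPM (18.0 to 29.8) and PFFs at 0.0739 RPM (0.00895 to 0.267). At the level of BL_2, 2.66 reads would have been expected in BL_1, so the absence of reads there does not separate the BL libraries at this depth. The mean of BL_1 and BL_2 was 11.7 ± 16.5 RPM (SD, n = 2).

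**Figure D1:**
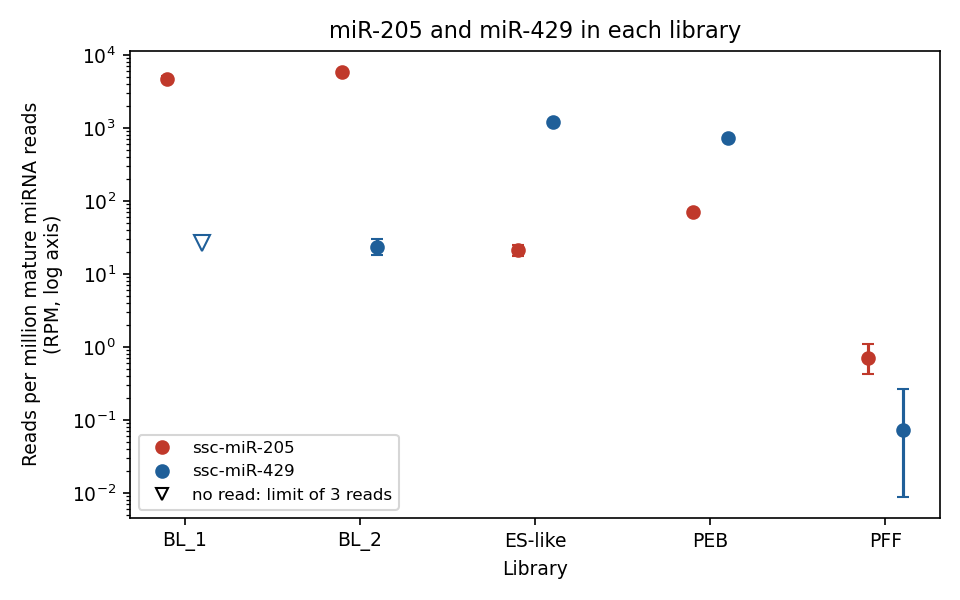
Level of ssc-miR-205 (red) and ssc-miR-429 (blue) in each of the 5 libraries, in RPM on a log axis, with exact Poisson intervals. The open triangle marks the limit of 3 reads for miR-429 in BL_1, which had no read. miR-205 is highest in both BL libraries and miR-429 in ES-like cells and PEBs, while PFFs are lowest for miR-205 and below BL_2, ES-like cells and PEBs for miR-429.

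The share of miR-205 among the reads of both members does not depend on the scaling between libraries. It was 100% of 540 reads in BL_1 (exact Clopper-Pearson interval 99.3 to 100%) and 99.6% of 16072 reads in BL_2 (99.5 to 99.7%). The ES-like library had a share of 1.72% of 7772 reads (1.45 to 2.04%), and in PEBs 9.08% of 12512 reads (8.58 to 9.60%). The pair of miRNAs thus changed places between the blastocysts and the cells in culture that came from blastocysts, with 246 reads of miR-205 for each read of miR-429 in BL_2 and 57.0 reads of miR-429 for each read of miR-205 in ES-like cells. PFFs had 21 reads of both together, 0.776 RPM, of which 90.5% (69.6 to 98.8%) were of miR-205. The summed level of both was 4748 RPM in BL_1, 5777 RPM in BL_2, 1220 RPM in the ES-like library and 789 RPM in PEBs.

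**Figure D2:**
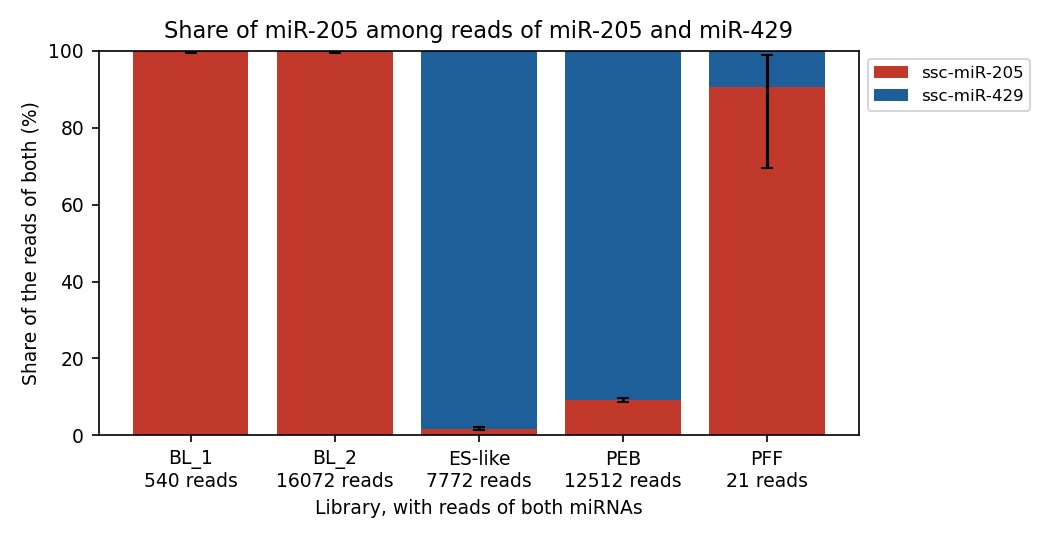
Share of ssc-miR-205 (red) and ssc-miR-429 (blue) among the reads of both in each library, in percent, with exact 95% intervals for miR-205 and the number of reads under each bar. miR-205 holds nearly all reads in BL_1 and BL_2, and miR-429 holds most reads in ES-like cells and PEBs.

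The BLs were compared with each other cell type to ask how embryo and cultured cells differ. miR-205 was higher in BLs than in every other cell type. On mean RPM, BLs were 73.3 times as high as PEBs, 249.7 times as high as ES-like cells and 7481 times as high as PFFs, and BL_1 and BL_2 each lay above all 3 single libraries. With edgeR's TMM scaling these ratios were 87.2, 418.5 and 4760, so those to ES-like cells and PFFs moved by more than 1.5 times with the scaling. In edgeR's quasi-likelihood test with 1 term per cell type, the log2 difference of miR-205 was 8.71 against ES-like cells (standard error 1.15, adjusted p = 1.65e-11), 6.45 against PEBs (standard error 1.03, adjusted p = 2.16e-08) and 12.20 against PFFs (standard error 1.33, adjusted p = 3.28e-16). These p-values rest on the spread between BL_1 and BL_2 alone, which may be technical, and the single libraries are assumed to vary like that pair. Calls were common in this fit: of 279 names tested, 16.8% were called higher in BLs than in ES-like cells, 16.1% than in PEBs and 20.8% than in PFFs. By size of the fitted difference among names higher in BLs, miR-205 was the 5th against ES-like cells, the 9th against PEBs and the 2nd against PFFs.

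miR-429 was lower in BLs than in ES-like cells and PEBs. BL_2 was at 23.4 RPM against 1199 RPM in ES-like cells, which were 51.3 times as high (40.2 to 66.5), and PEBs were 30.7 times as high as BL_2 (24.1 to 39.8). With TMM scaling these ratios were 28.0 and 23.6, so the one to ES-like cells moved by more than 1.5 times. Against the limit of 3 counts in BL_1, ES-like cells were 45.4-fold higher on RPM and 30.5-fold higher with TMM scaling, and PEBs 27.2-fold and 25.8-fold higher. The exact Poisson interval of BL_1 reached 32.4 RPM, above that limit, so the true folds may be smaller. The log2 difference of BLs was -5.24 against ES-like cells (standard error 0.91, adjusted p = 3.00e-07) and -4.99 against PEBs (standard error 0.91, adjusted p = 7.84e-07) in edgeR's quasi-likelihood test. In the same fit, 29.7% of the names were called lower in BLs than in ES-like cells and 34.1% lower than in PEBs, so a call in this direction was common. Against PFFs the fitted difference of miR-429 was 7.20 (standard error 1.39, adjusted p = 2.92e-06), higher in BLs, as were 20.8% of the names. That difference came from BL_2, with 65 reads against 2 in PFFs, a ratio of 316 (84.1 to 2667). BL_1 gave no read, and its limit of 26.4 RPM lies above the level of PFFs, so it cannot show the difference. As for miR-205, the p-values of miR-429 rest on the spread between BL_1 and BL_2 alone. The single libraries of the other cell types are again assumed to vary like that pair.

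**Figure D3:**
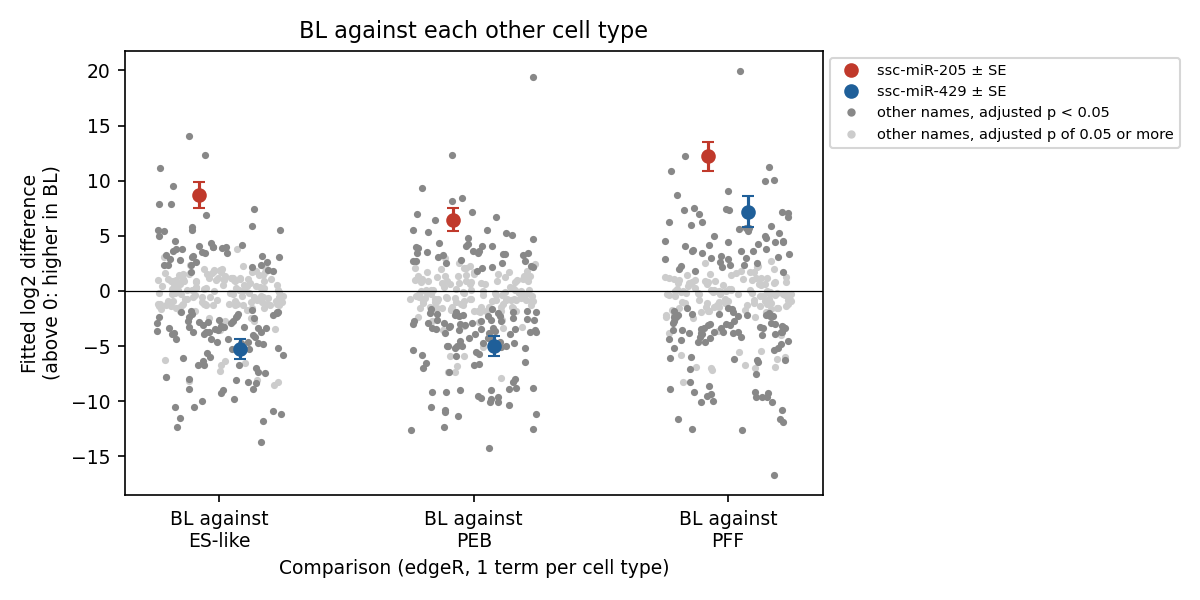
Fitted log2 difference of BLs against each other cell type for ssc-miR-205 (red) and ssc-miR-429 (blue), each with its standard error, over the 279 names tested (grey, darker where the adjusted p was under 0.05). miR-205 lies far above 0 in all 3 comparisons, and miR-429 lies below 0 against ES-like cells and PEBs and above 0 against PFFs.

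Between the ES-like cells and the PEBs made from them, the members went in opposite directions on RPM. The PEB level of miR-205 was 3.41 times that of ES-like cells (2.85 to 4.11), or 4.80 times with TMM scaling, and 20.2% of the 327 names with a read were more than 2-fold higher in PEBs. For miR-429 the ES-like level was 1.67 times that of PEBs (1.62 to 1.72), or 1.19 times with TMM scaling. Both are differences between single libraries. PFFs had nearly none of either member. The level of miR-205 was 30.0 times that of PFFs in ES-like cells (18.5 to 51.3) and 102 times in PEBs (65.1 to 170.3). With TMM scaling these ratios were 11.4 and 54.6. The level of miR-429 was 16224 times that of PFFs in ES-like cells (4490 to 133991) and 9715 times in PEBs (2689 to 80231), both resting on 2 reads in PFFs. With TMM scaling they were 6160 and 5197. More than 2-fold higher than in PFFs were 50.8% of all names in ES-like cells and 42.8% in PEBs.

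The study also set pluripotent cells (BLs and ES-like cells) against differentiated cells (PEBs and PFFs). The members lie across that division, since PEBs had more miR-205 than ES-like cells and a miR-429 level less than 2-fold below theirs. In edgeR's fit the log2 difference of miR-205 was 6.84 (standard error 2.98, adjusted p = 0.381), with BL_1 and BL_2 above both differentiated libraries and ES-like cells between them. For miR-429 it was -0.28 (standard error 2.73, adjusted p = 0.988 from edgeR). Of the 279 names, 0% had an adjusted p under 0.05 and 10.4% an unadjusted p under 0.05. DESeq2 called 14 names, among them miR-205 with a log2 difference of 7.21 and an adjusted p of 0.0105, and its adjusted p was between 0.0961 and 0.927 in edgeR and limma under the other settings. Its log2 difference ranged from 5.71 with limma to 11.67 without PEBs. For miR-429 the adjusted p was between 0.782 and 0.989 in edgeR and limma, DESeq2 gave none, and its direction turned with other scalings (0.18 with RLE size factors). The libraries within each class were of different cell types, so the spread includes those differences. By the rule of the study, by which a cell type must exceed each other type by more than 2-fold, applied here to RPM, miR-205 passed for BLs, as did 18.7% of the 327 names. miR-429 passed for no cell type, because its ratio of 1.67 between ES-like cells and PEBs was under the threshold.

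Other miRNAs known from epithelia were read beside the members. Of 9 such names, 8 were in the table, while ssc-miR-375, a miRNA of endocrine and gut cells, was not. Their summed level was 28142 RPM in BL_1, 42019 RPM in BL_2, 29391 RPM in the ES-like library and 22049 RPM in PEBs, but 85.6 RPM in PFFs. In both ES-like cells and PEBs, 8 of 8 were more than 2-fold higher than in PFFs, as both members were, beside 50.8% (ES-like cells) and 42.8% (PEBs) of all 327 names. ssc-miR-182 and ssc-miR-183, of a cluster expressed in sensory and other epithelia, made up most of this sum. Of miR-182 there were 16203 RPM in BL_1, 27137 in BL_2, 9973 in the ES-like library, 9213 in PEBs and 25.9 in PFFs. ssc-miR-183 was at 11315, 13660, 9973, 7645 and 19.0 RPM in the same order. Unlike the members, this pair stood within an order of magnitude in the BL, ES-like and PEB libraries. ssc-miR-96-5p of the same cluster was at 431 and 654 RPM in BL_1 and BL_2, 2098 in the ES-like library, 791 in PEBs and 2.18 in PFFs. ssc-miR-192, known from liver and gut, was at 167 and 507 RPM in BL_1 and BL_2, 5926 in the ES-like library, 2650 in PEBs and 8.42 in PFFs.

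In edgeR's test of BLs against PFFs, 5 of the 8 were called higher in BLs, 1 (ssc-miR-31) lower and 2 not called, beside 20.8% of all names higher and 31.2% lower, with a median log2 difference of 3.90 against -0.80 over all 279 names. Against ES-like cells, 1 (ssc-miR-182) was called higher in BLs and 4 lower (median -3.46, against -0.69 over all names, of which 16.8% were called higher and 29.7% lower), and against PEBs 0 higher and 4 lower (median -3.04, against -0.93, with 16.1% of all names higher and 34.1% lower). Of the fibroblast and mesenchyme miRNAs, 9 of 9 were called lower in BLs in each of the 3 comparisons, beside 29.7% of all names against ES-like cells, 34.1% against PEBs and 31.2% against PFFs. ssc-miR-143-3p stood at 17.6 and 60.4 RPM in BL_1 and BL_2, 13226 in the ES-like library, 17917 in PEBs and 101507 in PFFs. ssc-miR-199a-3p stood at 193 and 122 RPM in BL_1 and BL_2, 26515 in the ES-like library, 80420 in PEBs and 52517 in PFFs, with ssc-miR-199b-3p nearly equal to it in each library. ssc-miR-199a-5p stood at 52.8, 26.6, 17392, 31819 and 23636 RPM in the same order. The calls of both lists come from the same fit as those of the members and share its limits. Since ssc-miR-199a-3p and ssc-miR-199b-3p may be the same reads, their calls may not be separate. In these samples of many cells, fewer cells that carry a miRNA and less of it per cell cannot be told apart.

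**Figure D4:**
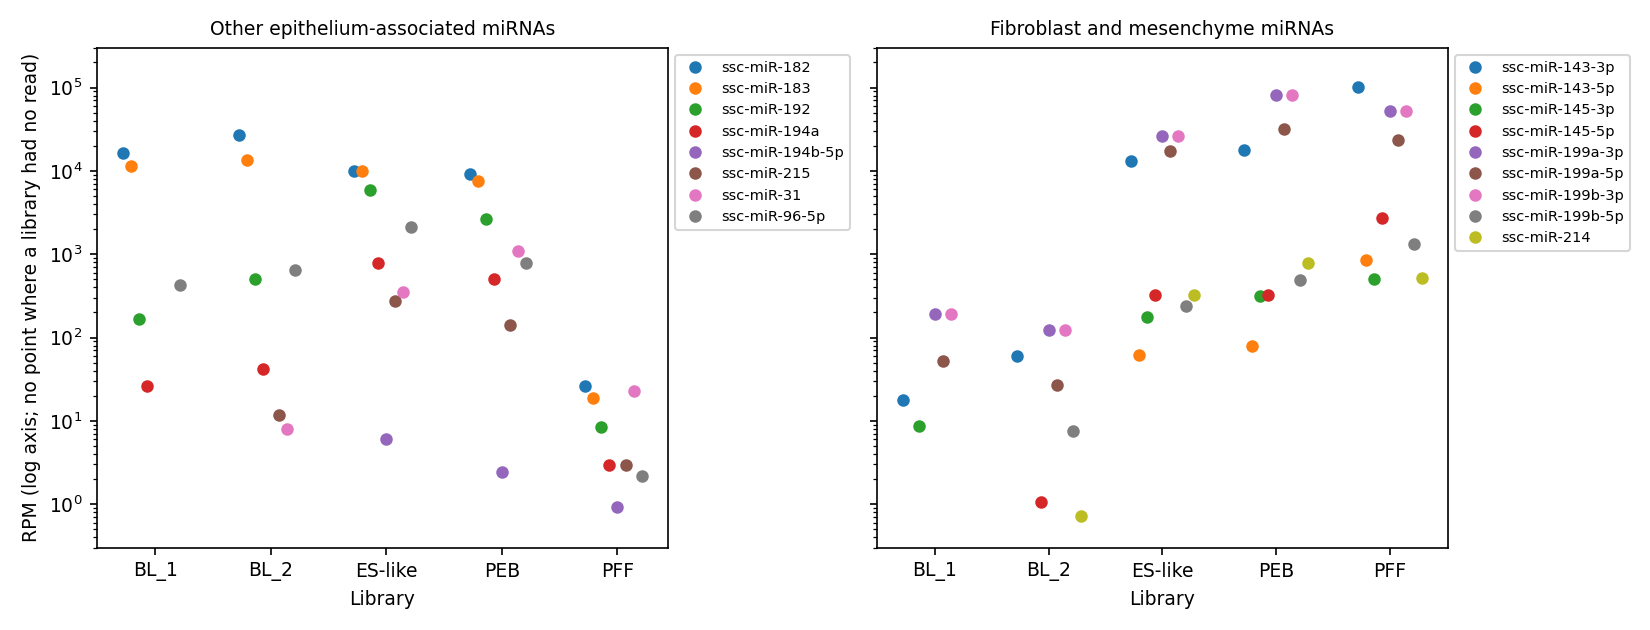
RPM on a log axis of 8 other epithelium-associated miRNAs (left) and 9 fibroblast and mesenchyme miRNAs (right) in each library, 1 point per miRNA, with no point where a library had no read. Each of the 8 epithelial miRNAs is lower in PFFs than in ES-like cells and PEBs, and the fibroblast set is low in both BL libraries.

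The names with the profile most like each member were found by the distance between profiles, which is the summed absolute difference of the shares of RPM over the 5 libraries, divided by 2, so that 0 means equal and 1 means no overlap. Names with at least 100 reads were used, 276 beside the member. For miR-205, with 44.8% of its summed RPM in BL_1 and 54.3% in BL_2, they were ssc-miR-105-1 (distance 0.0516), ssc-miR-371-5p (0.0748) and ssc-miR-378 (0.0903), against a median of 0.793 over all names. Of these, ssc-miR-105-1 had 5 reads in BL_1, 177 in BL_2, 9 in the ES-like library and none in PEBs or PFFs. ssc-miR-378 had 142954 and 128503 RPM in BL_1 and BL_2 against 7013 in ES-like cells. For miR-429, with 61.8% of its summed RPM in ES-like cells and 37.0% in PEBs, they were ssc-miR-122 (0.0338), the main miRNA of hepatocytes, ssc-miR-215 (0.0379) and ssc-miR-194a (0.0399), against a median of 0.478. ssc-miR-122 was at 101004 RPM in the ES-like library, 54096 in PEBs, 1767 in BL_1, 837 in BL_2 and 4.14 in PFFs. ssc-miR-215 was at 271.5 RPM in the ES-like library, 142 in PEBs, 11.9 in BL_2 and 2.99 in PFFs, with no read in BL_1. ssc-miR-194a was at 795 RPM in the ES-like library, 501 in PEBs, 26.4 in BL_1, 41.7 in BL_2 and 2.99 in PFFs. The nearest names of either member lie below the median distance by construction. All these profiles are a description of 5 points. Of the libraries, BL_1 and BL_2 are of the same cell type, and ES-like cells and PEBs share their source.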

How the data were processed

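Per the submitters' processing notes and the study's methods, the authors trimmed reads with Cutadapt 1.10 and used Bowtie 1.1.1, the Sscrofa10.2 build, and miRDeep2 with miRBase. Reported miRNAs were deposited as raw counts for each mature name and precursor, and the authors' TCC normalization was not applied to them. How reads matching several precursors were counted is not given in the sources used here. The deposited table of predicted loci holds read counts and scores, and its scores were not used. Here counts were summed per name and divided by the library total. Tests used edgeR 4.0.16 in R 4.3.3 (quasi-likelihood, TMM, Benjamini-Hochberg over all 279 names tested), with DESeq2 1.42.0 and limma 3.58.1 as alternatives. The edgeR steps were also run on simulated counts. Their dispersion was set below the common dispersion of these data, 0.153 in the fit by cell type and 1.25 for pluripotent against differentiated cells. That run checked the steps and does not show their error rates on these data. Poisson and Clopper-Pearson intervals came from scipy 1.17.1. Alternatives were other scalings, filters, tools, thresholds and pseudocounts, the largest precursor row, and single libraries left out. Named were all members held, the 4 highest miRNAs of each context list by mean RPM, and the 3 names nearest in profile to each member. Outside this rule, ssc-miR-31 was named for its call in BLs against PFFs, and ssc-miR-375 as the epithelial name not held. The members and lists were chosen with earlier results of these data known. No file used here gave the miRNA sequences.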

Additional observations from a re-analysis of the deposited data

Results flagged for a closer look

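Predicted loci outside miRBase enter none of the comparisons above. The table gives them by position on Sscrofa10.2, with neither a miRNA name nor a sequence, so whether any of them is one of the 6 names that the table of reported miRNAs does not hold was not tested. Among 783 predicted loci with a read count, those with the contrast of miR-429 to PFFs were looked up. The rule was chosen after seeing the data and left the BLs out. It asked for at least 1000 reads in both ES-like cells and PEBs, each at a level more than 100-fold that of PFFs (at least 3 counts). There were 14 such loci, some with the same counts as another, and in 3 of them the levels of ES-like cells and PEBs were within 2-fold of each other, as for miR-429. Levels are relative to mature miRNA reads. The rule itself sets their counts in ES-like cells and PEBs above the limit of 3 counts.

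On chromosome 6, a locus from 58064308 to 58064369 had 54640 reads in the ES-like library (8574 RPM), 144116 in PEBs (9093 RPM), 139 in BL_1 (1222 RPM), 4551 in BL_2 (1636 RPM) and 9 in PFFs (0.332 RPM). On chromosome 5, a locus from 66194130 to 66194195 had 45180 reads in the ES-like library (7090 RPM), 104990 in PEBs (6624 RPM), 114 in BL_1 (1002 RPM), 1705 in BL_2 (613 RPM) and 11 in PFFs (0.406 RPM). Another of the 14 loci lay close to it, from 66193716 to 66193784, with 1972 reads in the ES-like library, 2031 in PEBs and 7 in PFFs, and was not predicted in the BL libraries. On chromosome 9, a locus from 44167438 to 44167500 had 15479 reads in the ES-like library (2429 RPM), 40553 in PEBs (2559 RPM), 331 in PFFs (12.2 RPM) and 32 in BL_1 (281 RPM). In BL_2 it held a pair of overlapping predictions, of which the larger count, 831 (299 RPM), was used.

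The most abundant of the 14 loci, on chromosome 8 from 115200079 to 115200140, was not within 2-fold. Relative to mature miRNA reads it stood at 624593 RPM in the ES-like library, 110513 in PEBs, 245905 in BL_1, 178783 in BL_2 and 0.886 in PFFs. An unplaced scaffold held a locus with the same counts. On chromosome 8, loci starting at 115200553 and 115200689 were also among the 14. Whether these loci are names of the early embryo list that the table of reported miRNAs does not hold was not tested.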

How the results depend on the processing

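For miR-205 and miR-429 in BLs against ES-like cells, PEBs and PFFs, direction and call were the same with RLE size factors, library totals alone, no filter on low counts and DESeq2. The log2 difference of miR-205 ranged from 7.96 to 8.63 against ES-like cells, 6.15 to 6.82 against PEBs and 12.05 to 12.85 against PFFs, and that of miR-429 from -6.03 to -5.35, -5.32 to -4.70 and 7.01 to 7.74. Library totals in place of TMM shifted the median of all names by -0.75 in BLs against ES-like cells, and with them 25.2% of the calls there were higher in BLs, against 36.2% with TMM. Against PFFs, 69 of 138 calls were higher with library totals (median shift 0.64) and 58 of 145 with TMM. Leaving out either BL library left no spread to test, and without BL_1 the log2 ratio of miR-429 on RPM moved from -6.68 to -5.68 against ES-like cells. Without BL_2, miR-429 had no read in BLs.

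In pluripotent against differentiated cells, miR-429 changed sign without being called, to 0.18 with RLE size factors, 0.19 with library totals, 3.05 with limma and 0.61 without BL_1, and was -0.88 without PFFs. Without BL_2, ES-like cells or PEBs it did not pass the filter. DESeq2 called 14 names, miR-205 among them (7.21). With single libraries left out, from 0 to 16 names were called, the 16 without ES-like cells. The cause was not tested. The 2-fold rule gave the same outcome for both members under each alternative, with log2 ratios from 4.96 to 6.82 for miR-205 (BLs over PEBs) and 0.25 to 0.74 for miR-429 (ES-like cells over PEBs). For miR-429, which did not pass, the stricter threshold and the pseudocounts could only leave that outcome as it was. With 1 precursor row each, the largest row changes nothing by construction. No paired analysis was possible because each cell type but the BLs had 1 library, so the groups shared fewer than 2 replicate numbers. Depth limits miR-429 in BL_1, and few reads widen the intervals of ratios to PFFs. Counting miR-199a-3p and miR-199b-3p once in the fibroblast sum was chosen after seeing the data.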
